A study of Mus musculus with 10 samples.

Results

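The tubulin genes measured here are 10 genes that encode the subunits of microtubules. They comprise 5 alpha-tubulin genes (Tuba1a, Tuba1b, Tuba1c, Tuba4a and Tuba8) and 5 beta-tubulin genes (Tubb2a, Tubb2b, Tubb4b, Tubb5 and Tubb6), out of 55421 genes in the count table. They were matched by gene symbol, and each symbol matched 1 gene. The group was selected on its measured values in these livers, with the difference between H3.3 KO and control livers already known, so that the KO values of these 10 genes are descriptions. Where a threshold is applied to their KO values, it counts calls and tests nothing. The comparison between both kinds of control is given with its test. Its livers also entered the KO comparisons, so that test is not independent of the selection. All 10 genes were among the 22449 that reached a total of 10 counts over all livers.

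The livers came from 10 male C57BL/6 mice, and their polyadenylated RNA was sequenced. The genes H3f3a and H3f3b encode H3.3, a variant of histone H3. In the H3.3 KO group, 4 mice with both genes floxed (H3f3a fl/fl H3f3b fl/fl) received AAV8 Tbg-Cre, an adeno-associated virus in which the hepatocyte promoter Tbg drives Cre recombinase. The WT Cre controls were 3 wild-type mice given the same virus, and the MCS controls were 3 floxed mice given AAV8 Tbg-MCS, which carries no Cre. Mice were injected at 6 months old, 3 weeks before the liver was collected. The KO and the WT Cre livers thus share the Cre virus, whereas the KO and the MCS livers share the floxed alleles. WT Cre and MCS controls differ in both, and alleles and virus cannot be told apart between them. Tbg is a promoter of hepatocytes, and which cells of the liver lost both genes was not measured here. The genotype field of the labels names HIRA fl/fl for the floxed mice, and the groups were taken from the titles. Control columns were matched to the livers by the number in their library names, so that each value for one kind of control rests on that match.

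Microtubules are hollow polymers of alpha- and beta-tubulin dimers that carry cargo, hold organelles in place and form the mitotic spindle. Mammals express several genes of each kind, and their proteins differ mainly in the last residues, the acidic tail, which protrudes from the lattice and is the site of enzymatic tyrosine removal and chain addition. In hepatocytes, microtubules serve the secretion of plasma proteins and the transport of membrane to the bile canaliculus. Tuba8 is a divergent alpha-tubulin gene whose expression is best known from striated muscle and testis.

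The end of the coding sequence is where the alpha-tubulin genes differ in kind, and it is shown for Tuba8, Tuba4a and Tuba1c. Each line gives the last bases of the coding sequence, 5′ to 3′, from the GENCODE M21 transcripts (mm10), with the last codon before the stop codon in capitals.
Tuba1c: gaaggagacgatgagggtgaggaaTATtaa
Tuba4a: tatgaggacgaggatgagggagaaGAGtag
Tuba8: gaagaagagaatgagggggaggaaTTTtaa
The last codon reads as tyrosine in Tuba1c, as glutamate in Tuba4a and as phenylalanine in Tuba8. The Tuba8 product thus ends in phenylalanine where Tuba1c encodes the tyrosine that tail enzymes remove and restore.

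Tuba8 lies on chromosome 6 at 121210696 to 121226854 on the plus strand (mm10) and is protein coding, with 2263 bases of exon. The sequence from 250 bases before to 50 bases after its start in RefSeq (build GRCm38.p6, chr6:121210484-121210783, plus strand) is printed because Tuba8 has the largest difference of the 10 genes, and that of Tuba4a (chr1:75219245-75219544, minus strand) because it is the most abundant alpha-tubulin gene of the control livers. Capitals mark the motifs that a search of both strands found.
Tuba8: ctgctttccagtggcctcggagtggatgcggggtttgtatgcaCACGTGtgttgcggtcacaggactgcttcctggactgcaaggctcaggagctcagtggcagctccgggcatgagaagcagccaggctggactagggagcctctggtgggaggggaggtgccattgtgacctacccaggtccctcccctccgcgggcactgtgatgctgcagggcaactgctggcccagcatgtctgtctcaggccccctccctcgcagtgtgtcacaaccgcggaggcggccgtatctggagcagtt
Tuba4a: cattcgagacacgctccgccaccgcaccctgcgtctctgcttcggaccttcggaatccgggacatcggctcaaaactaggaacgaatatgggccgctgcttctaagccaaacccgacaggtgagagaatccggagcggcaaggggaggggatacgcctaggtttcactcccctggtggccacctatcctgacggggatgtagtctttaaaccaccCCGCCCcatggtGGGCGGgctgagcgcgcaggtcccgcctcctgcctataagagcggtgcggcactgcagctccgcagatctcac
RefSeq promoters were found for 8 of the 10 genes. The motifs searched were TATAAA (the TATA box), the CCAAT box, the GC box GGGCGG, the E box CACGTG and the cyclic AMP element TGACGTCA. The Tuba8 window holds 1 CACGTG, a motif present in 7.15% of 32851 promoters of this length. The Tuba4a window holds 2 copies of GGGCGG or its complement, which occurs in 35.7% of promoters. GGGCGG was also found in the windows of Tuba1a, Tuba1b, Tubb2a, Tubb4b and Tubb5. CACGTG was also found in that of Tubb5.

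The other members lie apart from Tuba8. Tuba1b (98931425 to 98934565, minus strand), Tuba1a (98949837 to 98953703, minus strand) and Tuba1c (99029891 to 99038110, plus strand) form a cluster on chromosome 15. Tubb2a (34074274 to 34078007) and Tubb2b (34126748 to 34130466) are neighbours on the minus strand of chromosome 13. Tuba4a lies on chromosome 1 (75214228 to 75219865, minus strand), Tubb4b on chromosome 2 (25222160 to 25224702, minus strand), Tubb5 on chromosome 17 (35833921 to 35838306, minus strand) and Tubb6 on chromosome 18. Their likeness bears on the counts. Of all stretches of 50 bases in its transcripts, 72.9% in Tuba1a, 66.7% in Tuba1b and 52.7% in Tuba1c recur in another gene on the same strand, as do 49.6% in Tubb2a, 36.9% in Tubb2b and 37.8% in Tubb4b. Values of these 6 genes are therefore uncertain where reads could be placed in more than 1 gene. The share is 0.181% in Tuba8, 0.807% in Tuba4a and 0.0892% in Tubb5, so that their reads are nearly unique. On the opposite strand, the gene Stk16 covers 37.3% of the exon bases of Tuba4a, and the antisense gene Gm15856 covers 16.3% of those of Tuba8. The strand setting of the counting is not stated, and reads in those overlaps cannot be assigned with certainty.

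The livers held between 14998426 (KO 1) and 26096141 (MCS 1) counts. Levels are given as CPM (counts scaled to a common library size after TMM normalization) for each gene across livers, and as RPKM (CPM per kilobase of exon) where genes are compared with each other. H3f3a was at 59.9 to 63.7 CPM in the 6 controls and at 16.0 to 19.0 CPM in the 4 KO livers. H3f3b was at 136 to 204 CPM in the controls and at 39.8 to 56.7 CPM in KO. Both targeted genes were thus lower in every KO liver than in every control (edgeR, adjusted p = 5.48e-07 for H3f3a and 3.12e-05 for H3f3b against WT Cre). Hepatocyte markers were abundant in all livers, their 10 genes summing to at least 86657 CPM. No batch or date is given in the labels.

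Tuba8 separated the 3 groups of livers. It had 75, 64 and 61 counts in WT Cre 1 to 3, 11, 15 and 7 in MCS 1 to 3, and 903, 2262, 2148 and 2018 in KO livers 1 to 4. This corresponded to 3.13, 2.78 and 2.42 CPM in the WT Cre controls, 0.448, 0.670 and 0.391 CPM in the MCS controls, and 58.8, 89.4, 90.5 and 77.2 CPM in the KO livers. The groups did not overlap. The lowest KO liver, KO 1, was far above the highest control, and each WT Cre control was above each MCS control. The mean was 79.0 CPM ± 14.7 (SD, n = 4) in KO, 2.77 ± 0.352 (n = 3) in WT Cre and 0.503 ± 0.147 (n = 3) in MCS. The fitted log2 fold change of KO was 4.83 ± 0.20 (SE) against WT Cre, or 28.5-fold, and 7.27 ± 0.24 against MCS, or 154-fold. Both comparisons share the KO livers. Among the 3444 genes called higher in KO than in WT Cre at an edgeR adjusted p under 0.05, Tuba8 had the 221st highest log2 fold change, and it had the 59th highest among the 3880 called higher than in MCS.

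The antisense gene Gm15856 had 1 count in WT Cre 1, 0 counts in the other 5 controls, and 11, 22, 21 and 25 counts in the KO livers. Its log2 fold changes in KO were 5.49 ± 0.64 (SE) against WT Cre and 7.31 ± 0.81 against MCS. Tuba8 had 903 to 2262 counts in the same KO livers. Whether reads of the overlap entered the counts of Tuba8 was not tested. Markers of striated muscle and testis, where Tuba8 is known to be expressed, were read in the same libraries. Of 8 striated muscle markers, 6 were tested and 3 (50%) were called higher in KO in each comparison. Over all genes tested, the share called higher was 15.3% against WT Cre and 17.3% against MCS. The summed level of the 8 muscle markers was 0.0834 to 0.260 CPM in WT Cre and 0.168 to 0.407 CPM in MCS. In KO it was 1.04 to 4.74 CPM. The creatine kinase gene Ckm had 5, 44, 18 and 16 counts in KO 1 to 4, with KO 2 the highest, and Mb, the gene of myoglobin, had 0 counts in all 10 livers. The sperm genes Tnp1 and Odf1 also had 0 counts throughout, and Prm1 had 1 count in KO 1 and 0 elsewhere. The part of cells of these tissues in the values of Tuba8 was not tested.

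**Figure D1:**
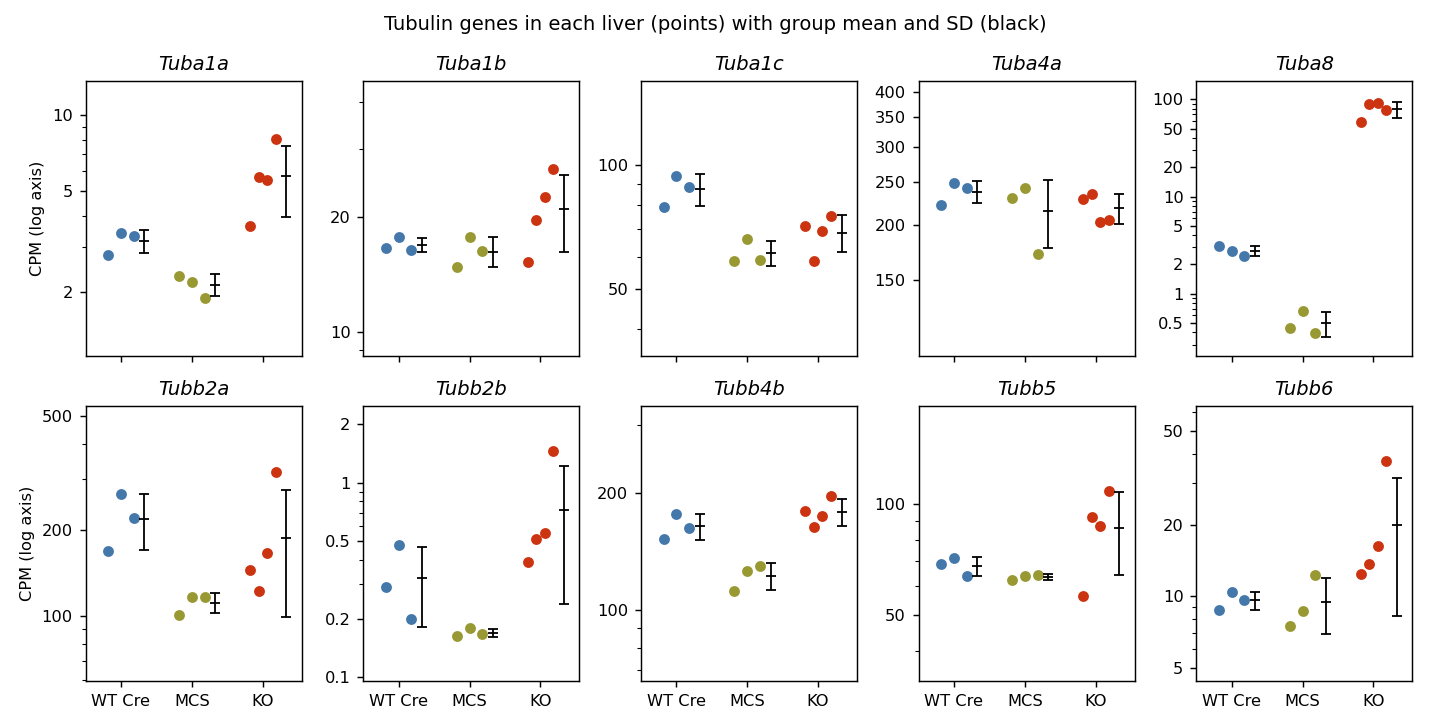
Level of each tubulin gene in each liver, in CPM on a log axis whose range differs between panels, for WT Cre (blue, n = 3), MCS (olive, n = 3) and KO (red, n = 4), with the group mean and SD in black. Tuba8 is at 58.8 to 90.5 CPM in KO and at most 3.13 CPM in the controls, while Tuba4a overlaps between the groups and Tubb2a, Tubb2b and Tubb6 are highest in KO 4.

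The remaining alpha-tubulin genes differed much less. Tuba1a, the alpha-tubulin gene of neurons and many growing cells, was at 2.79, 3.43 and 3.33 CPM in WT Cre, 2.32, 2.19 and 1.90 CPM in MCS and 3.65, 5.69, 5.56 and 8.03 CPM in KO. Every KO liver was above every control, though KO 1 was so by a small margin, and the log2 fold change of KO was 0.86 ± 0.24 (SE) against WT Cre and 1.43 ± 0.25 against MCS. Tuba1b, a ubiquitous alpha-tubulin gene, was at 16.4 to 17.7 CPM in WT Cre, 14.8 to 17.7 CPM in MCS and 15.2, 19.7, 22.5 and 26.6 CPM in KO. KO 1 lay among the controls and the other 3 KO livers lay above them, with log2 fold changes of 0.32 ± 0.16 and 0.37 ± 0.16. Tuba1c, a further ubiquitous member, was at 79.3, 94.4 and 88.6 CPM in WT Cre, 58.5, 66.1 and 58.8 CPM in MCS and 71.2, 58.6, 69.1 and 75.3 CPM in KO. Its KO livers lay between both kinds of control, below all WT Cre livers and mostly above MCS, with log2 fold changes of -0.35 ± 0.11 and 0.16 ± 0.11. Tuba4a, whose coding sequence lacks the final tyrosine codon, was at 222 to 249 CPM in WT Cre, 172 to 242 CPM in MCS and 203 to 235 CPM in KO. The 3 groups overlapped, and its log2 fold changes were -0.13 ± 0.13 and 0.02 ± 0.13.

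Among the beta-tubulin genes, Tubb4b, a broadly expressed gene also used in cilia, was at 153, 177 and 163 CPM in WT Cre, 112, 126 and 130 CPM in MCS and 180, 164, 175 and 197 CPM in KO. The KO livers overlapped with WT Cre and lay above all MCS livers, with log2 fold changes of 0.12 ± 0.11 and 0.55 ± 0.11. Tubb5, the beta-tubulin gene typical of dividing cells, was at 63.7 to 71.5 CPM in WT Cre, 62.4 to 64.5 CPM in MCS and 56.5, 92.1, 87.5 and 108 CPM in KO. KO 1 lay below all controls and the other 3 KO livers above them. The log2 fold changes over all 4 KO livers were 0.34 ± 0.17 and 0.44 ± 0.17. Without KO 1 they were 0.50 and 0.60.

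Tubb2a, Tubb2b and Tubb6 were highest in KO 4. Tubb2a had the highest mean RPKM of the beta-tubulin genes in each group. It was at 169, 266 and 221 CPM in WT Cre and 101, 117 and 116 CPM in MCS. In KO it was at 145, 123, 166 and 318 CPM. Its log2 fold change was -0.22 ± 0.29 against WT Cre and 0.75 ± 0.30 against MCS, and without KO 4 the former was -0.61. Tubb2b, best known from neurons, had 5 to 11 counts in WT Cre, 3 to 4 in MCS and 6, 13, 13 and 38 in KO. These counts are few, and its log2 fold changes of 1.21 ± 0.49 and 2.10 ± 0.55 are accordingly wide. Tubb6, a divergent beta-tubulin gene, was at 8.75, 10.5 and 9.69 CPM in WT Cre, 7.49, 8.66 and 12.3 CPM in MCS and 12.4, 13.7, 16.4 and 37.3 CPM in KO. Every KO liver lay above every control, but the lowest did so only just, and the log2 fold changes of 1.05 ± 0.37 and 1.08 ± 0.37 fell to 0.55 and 0.59 without KO 4.

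By the threshold of an edgeR adjusted p under 0.05, Tuba8 and Tuba1a were called higher and Tuba1c lower against WT Cre, that is 2 of 10 higher, where 15.3% of all genes tested were called higher, and 1 of 10 lower, where 13.1% were. Against MCS, Tuba8, Tuba1a, Tubb2b and Tubb4b were called higher, 4 of 10, where 17.3% of all genes were higher and 14.8% lower. In 3 of the 10 genes, Tuba8, Tuba1a and Tubb6, all 4 KO livers lay above all 6 controls, as they did for 12.5% of all genes tested. The median log2 fold change of the 10 genes was 0.33 against WT Cre and 0.65 against MCS, beside 0.02 and 0.01 over all genes. As the genes were chosen on these contrasts, nothing is read from these counts. Over the 19 alternative analyses, the call of Tuba1a against WT Cre was lost without WT Cre 1 (log2 fold change 0.77), without WT Cre 3 (0.89) and on the FPKM values. That of Tuba1c was lost in 9 of 19, and the number of members called against WT Cre was 7 without KO 1, 5 without KO 4 and 1 without WT Cre 3. Against MCS it was 7 without KO 1. Calls over all genes moved as well. Against WT Cre they were 6383 of 22449 in the main fit and 8187 of 22192 without KO 1. They were 5724 of 21947 without KO 4 and 4297 of 22069 without WT Cre 3. Against MCS they were 7192 of 22449 in the main fit and 8781 of 22192 without KO 1.

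**Figure D2:**
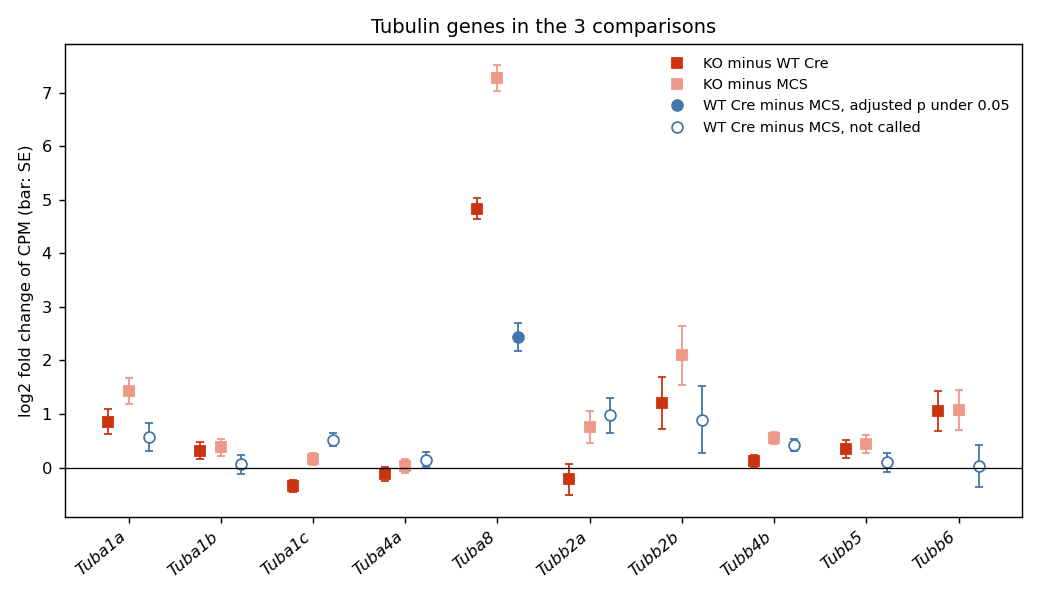
Log2 fold change of each tubulin gene with its SE, for KO minus WT Cre (dark squares), KO minus MCS (light squares) and WT Cre minus MCS (circles, filled where the adjusted p was under 0.05). Tuba8 stands apart at 4.83 and 7.27 for KO, and it is the one gene with a filled circle, at 2.44.

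The fold changes between both kinds of control use no KO liver, and they were tested. The same control livers entered the KO comparisons on which the genes were selected. These values are therefore not independent of that selection. Tuba8 was higher in WT Cre than in MCS livers, with a log2 fold change of 2.44 ± 0.25 (SE), or 5.41-fold (edgeR, adjusted p = 0.00115, higher in 3 of 3 livers). It ranked 19th by log2 fold change among the 99 genes called higher in WT Cre, which were 0.441% of all genes tested, while 0.486% were called lower. Over the 19 alternatives its adjusted p ran from 1.05e-10 to 0.0799, and it missed the threshold on log2(FPKM + 1), where the log2 difference was 0.82. At 7 to 15 counts in the MCS livers, the size of this difference rests on few reads. The other 9 genes did not pass in edgeR, although Tuba1a, Tuba1c, Tubb2a and Tubb4b had an unadjusted p under 0.05 and DESeq2 also called Tuba1c and Tubb4b. Tuba1c came closest, at a log2 fold change of 0.52 ± 0.12 (edgeR, adjusted p = 0.0781), and it passed in 7 of the 19 alternatives, with an adjusted p of 0.00437 in DESeq2. Tubb4b had 0.42 ± 0.12 (adjusted p = 0.136) and passed in 4 of 19. Tubb2a had 0.97 ± 0.32 (adjusted p = 0.266) and passed in 3 of 19. All 10 log2 fold changes were positive, with a median of 0.47 beside 0 over all genes, although that of Tubb6 (0.03) turned negative without WT Cre 2, MCS 1 or MCS 2 and that of Tuba1b (0.06) without MCS 1. In 6 of the 10 genes, Tuba1a, Tuba1c, Tuba8, Tubb2a, Tubb2b and Tubb4b, every WT Cre liver was above every MCS liver, where 11% of all genes tested showed this.

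By RPKM, Tuba8 was the ninth of the 10 tubulin genes in both control groups and the fourth in KO. Tubb2a had the highest level in each group, at 136 RPKM ± 30.2 (SD, n = 3) in WT Cre, 69.2 ± 5.54 (n = 3) in MCS and 117 ± 55.0 (n = 4) in KO. Tubb4b and Tuba4a followed at 78.7 and 64.2 RPKM in WT Cre, 58.7 and 57.9 RPKM in MCS and 85.8 and 58.8 RPKM in KO. The ranges of Tubb4b and Tuba4a overlapped in MCS, and those of Tubb2a and Tubb4b overlapped in KO. In both control groups the order went on with Tuba1c, Tubb5, Tuba1b, Tubb6, Tuba1a, Tuba8 and Tubb2b, with no overlap between neighbours. There Tuba8 stood at 1.23 RPKM ± 0.156 in WT Cre and 0.222 ± 0.0650 in MCS. In KO it stood at 34.9 RPKM ± 6.51, next to Tuba1c at 29.97 ± 3.11 and Tubb5 at 25.9 ± 6.52. The KO ranges of Tuba8 and Tuba1c overlapped, as did those of Tuba1c and Tubb5 and of Tuba1b and Tubb6. The deposited FPKM gave another order. There the mean of Tuba4a was above that of Tubb2a in WT Cre (154.5 and 139.7), MCS (127 and 63.8) and KO (154.5 and 129.8). Tuba8 was the lowest of the tubulin genes in both control groups, at 1.15 and 0.215 FPKM. In KO, at 35.7 FPKM, it lay below Tuba1c (51.8) and Tuba1b (36.3).

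Summed over the 5 genes, alpha-tubulin RNA was at 114.5 RPKM ± 7.40 (SD, n = 3) in WT Cre, 94.8 ± 11.8 (n = 3) in MCS and 138 ± 6.14 (n = 4) in KO. The 4 KO livers, at 129 to 142 RPKM, all lay above the 6 controls, at 82.1 to 121 RPKM. Without Tuba8 the sums were 113 ± 7.50, 94.5 ± 11.7 and 103 ± 2.79 RPKM, and KO lay between both kinds of control. Tuba8 made up 1.08% ± 0.196 of the alpha-tubulin RNA in WT Cre, 0.232% ± 0.0426 in MCS and 25.2% ± 3.84 in KO, with 20.2%, 27.8%, 28.6% and 24.2% in KO 1 to 4. Tuba4a held 56.1% ± 0.545, 60.9% ± 3.84 and 42.7% ± 4.29, and Tuba1c 33.4% ± 0.761, 28.4% ± 2.62 and 21.8% ± 2.73. The difference in the Tuba8 share between KO and WT Cre was 24.1 percentage points from counts and 11.7 from the deposited FPKM, which place the level of Tuba4a and of the Tuba1 genes higher.

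Summed beta-tubulin RNA was at 239 RPKM ± 36.9 (n = 3) in WT Cre, 151 ± 11.2 (n = 3) in MCS and 237 ± 70.4 (n = 4) in KO. The KO livers were at 199, 188, 220 and 341 RPKM, so that KO 4 set much of the spread. All KO livers lay above all MCS livers and they overlapped with WT Cre. Between the controls, the summed alpha level, the summed beta level and the Tuba8 share were each higher in all 3 WT Cre livers, by 19.7 RPKM, 88.1 RPKM and 0.846 percentage points. A two-sided exact permutation test of 3 against 3 livers cannot go below p = 0.1, and each of the 3 tests gave p = 0.1 (adjusted p = 0.1 over the 3).

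**Figure D3:**
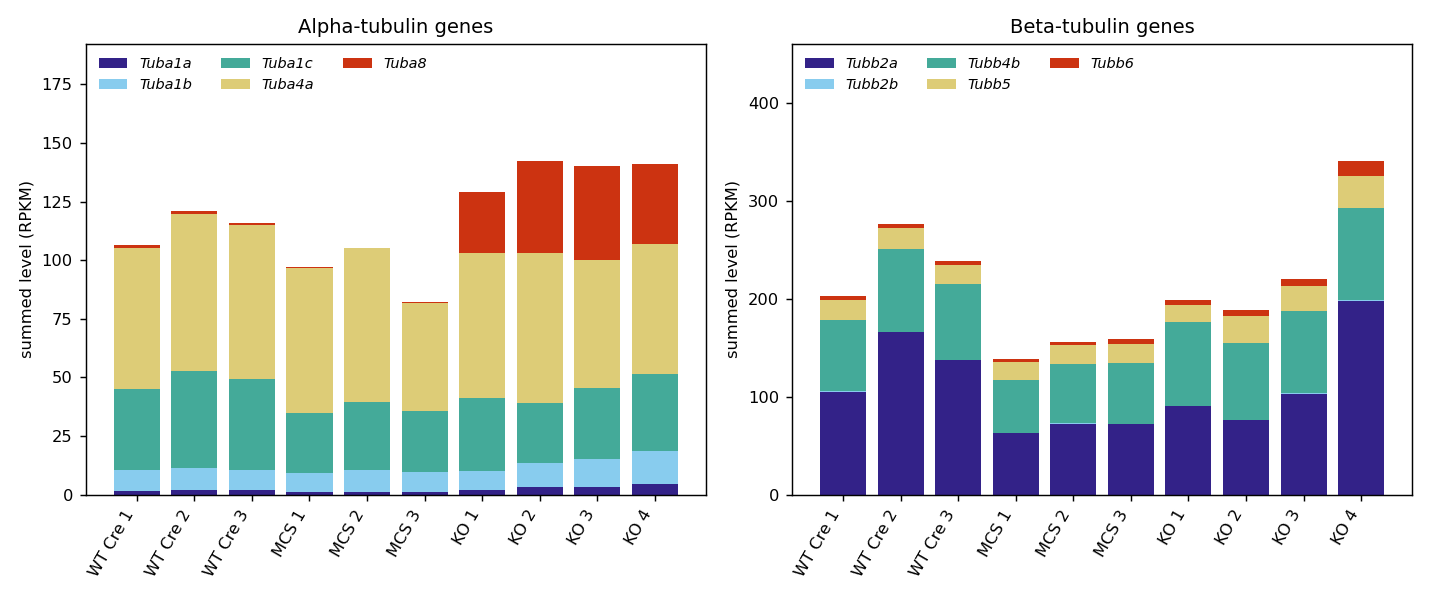
Summed level of the alpha-tubulin genes (left) and beta-tubulin genes (right) in each liver, in RPKM, stacked by gene. The Tuba8 segment (red, left) makes up 20.2% to 28.6% of the alpha-tubulin bars in KO and at most 1.30% in the controls, and the tallest beta-tubulin bar is that of KO 4 at 341 RPKM.

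The RNA came from whole liver, so that a change in the number of cells of a type and a change of RNA per cell cannot be told apart, and markers of other cell types moved with KO. All 13 Kupffer cell and macrophage markers and 11 of 12 stellate cell and fibroblast markers were called higher in both KO comparisons. Over all genes tested, 15.3% were called higher against WT Cre and 17.3% against MCS. The macrophage markers summed to 204 to 258 CPM in WT Cre, 204 to 394 CPM in MCS and 476, 757, 804 and 1048 CPM in KO 1 to 4. The stellate markers summed to 253 to 263 CPM, 222 to 285 CPM and 511, 576, 565 and 824 CPM. KO 4, where all tubulin genes but Tuba4a and Tuba8 had their highest KO value, thus also had the highest sums of both lists, and the highest of 8 endothelial markers (344 CPM beside 204 to 242 CPM in the other KO livers and 177 to 220 CPM in controls). Their part in the values of these tubulin genes was not tested. Tuba8 differed from these lists in its highest livers, KO 3 and KO 2, and was lowest in KO 1. The lymphocyte and neutrophil sums given next were also highest in KO 2 and KO 3 and lowest in KO 1. Their part in the values of Tuba8 was not tested. Lymphocyte markers (10 genes, 6 called higher against WT Cre and 8 against MCS) summed to 5.81 to 7.78 CPM in the controls and to 7.82, 94.2, 74.1 and 65.1 CPM in KO. Much of the KO sum came from Jchain, with a mean of 41.3 CPM and a range of 0.717 to 66.3 CPM. The highest KO mean of the other lymphocyte markers was 4.64 CPM, for Cd4. Neutrophil markers (6 genes) summed to 3.38 to 12.1 CPM in the controls and 5.86 to 27.1 CPM in KO, cholangiocyte markers (8 genes) to 41.2 to 62.5 CPM and 55.2 to 74.5 CPM, and hepatocyte markers (10 genes) to 112495 to 157336 CPM and 86657 to 101445 CPM. Against WT Cre, 2 of 8 endothelial, 2 of 7 tested cholangiocyte and 2 of 4 tested neutrophil markers were called higher. Against MCS these were 2, 3 and 1. Of the hepatocyte markers, 1 of 10 was called lower against WT Cre and 7 of 10 against MCS. Over all genes tested, 13.1% and 14.8% were called lower.

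Beyond the 10 genes, 7 lists of genes that fold tubulin, modify its tail, bind, nucleate or move along microtubules, or act in mitosis were read, with 168 genes tested. In KO, 44 were higher and 29 lower against WT Cre, and 51 were higher and 29 lower against MCS. These are 26.2% and 17.3% of them, then 30.4% and 17.3%, beside the shares of all genes given above. Mitotic genes supplied 24 and 27 of the higher genes and 1 and 0 of the lower. Without their list, a count made after the values were seen, 20 of 138 genes (14.5%) were higher and 28 (20.3%) lower against WT Cre, and 24 (17.4%) were higher and 29 (21.01%) lower against MCS. The shares of higher genes were then close to the 15.3% and 17.3% of all genes. Those of lower genes were above the 13.1% and 14.8% of all genes. Scaling by library size alone, which shifted the all-gene median by 0.11 (log2) against WT Cre and 0.25 against MCS, gave 47 higher and 19 lower, then 75 higher and 9 lower. Over all genes, the same scaling raised the share of higher among called genes from 54.0% to 65.5% against WT Cre and from 53.9% to 76.7% against MCS.

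**Figure D4:**
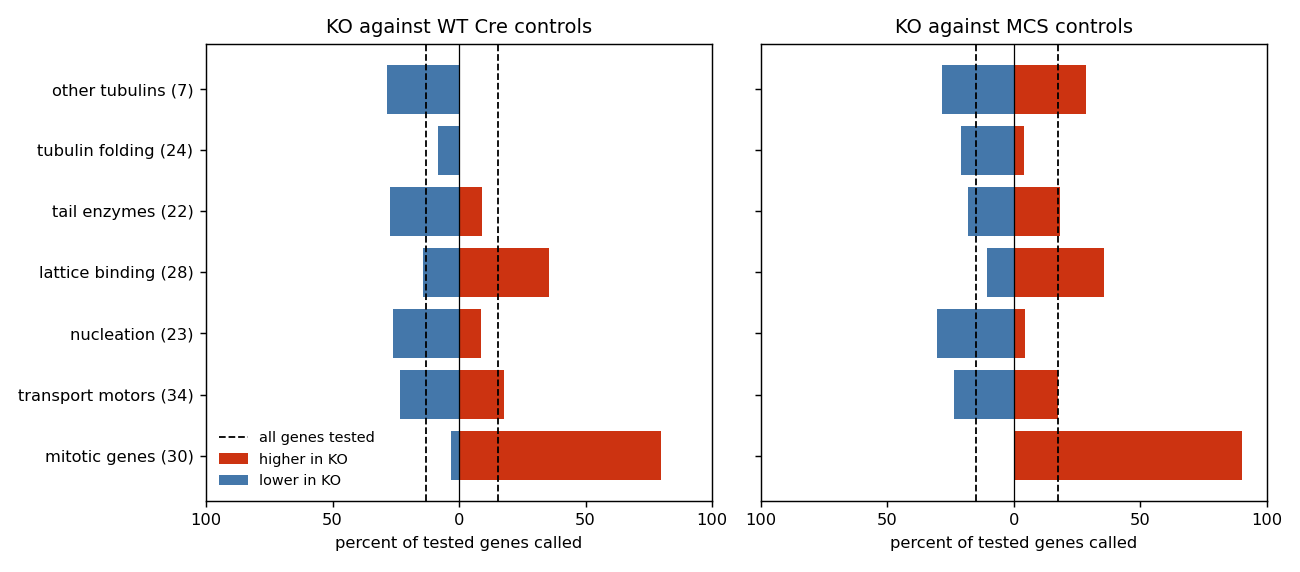
Percent of the tested genes of each microtubule list called higher (red, to the right) or lower (blue, to the left) in KO at an edgeR adjusted p under 0.05, against WT Cre (left) and MCS (right), with the number tested in parentheses and dashed lines for all genes tested. The mitotic genes reach 80% and 90% higher, and the other lists stay closer to the dashed lines.

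Of the 30 mitotic genes, 24 were higher and 1 lower against WT Cre, and 27 were higher and 0 lower against MCS. The lower gene was Spc25, of the kinetochore complex that holds microtubules, at 9.36 CPM ± 1.62 in WT Cre, 4.61 ± 1.09 in MCS and 4.06 ± 1.27 in KO (log2 fold change -1.22 ± 0.25 against WT Cre, edgeR adjusted p = 0.00353). Mki67, the gene of the proliferation antigen Ki-67, rose from 2.75 CPM ± 0.880 in WT Cre and 1.77 ± 0.337 in MCS to 10.6 ± 3.33 in KO (log2 fold changes 1.96 and 2.60, edgeR adjusted p = 0.000694 and 0.000129). Kif23, a kinesin of the dividing cell's midzone, rose from 0.733 and 0.642 CPM to 2.76 ± 0.376 (log2 fold changes 1.91 and 2.11, adjusted p = 0.000344 and 0.000173). Both calls held in all 19 alternatives. The summed level of the list was 34.1 to 49.1 CPM in WT Cre and 26.6 to 29.1 CPM in MCS. In KO it was 57.8, 83.1, 99.9 and 92.4 CPM, lowest in KO 1. Of the tubulin genes, Tuba1a, Tuba1b, Tuba8, Tubb2b, Tubb5 and Tubb6 also had their lowest KO value in KO 1. Tuba1c, Tuba4a, Tubb2a and Tubb4b did not. Without WT Cre 1, the number called higher against WT Cre was 14, while that over all genes went from 3444 to 2357.

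Of 10 other tubulin genes, 7 were tested, and all but Tubg1 had a mean of at most 3.88 CPM in each group. Of the 7, 2 (28.6%) were lower against WT Cre, and 2 were lower and 2 higher (28.6% each) against MCS. Tubg1, gamma-tubulin of the nucleating ring, fell from 32.1 CPM ± 1.48 in WT Cre and 32.7 ± 1.93 in MCS to 23.6 ± 4.43 in KO (log2 fold changes -0.45 and -0.47, edgeR adjusted p = 0.0301 and 0.0209). Tube1, epsilon-tubulin of the centriole, fell from 1.40 and 1.29 CPM to 0.550 ± 0.298 (log2 fold changes -1.37 and -1.27, adjusted p = 0.0325 and 0.0422). The calls of Tubg1 held in 11 and 13 of the 19 alternatives and those of Tube1 in 10 and 7, and both lost the call against WT Cre without any one WT Cre liver. Against MCS, Tubb4a and Tubg2 were also called higher, at 0.592 and 0.399 CPM in KO.

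Of 24 genes of tubulin folding, 2 (8.33%) were lower against WT Cre, and 5 (20.8%) were lower and 1 (4.17%) higher against MCS. Tbce, a cofactor that assembles and takes apart the dimer, fell from 21.9 and 21.4 CPM to 15.9 ± 3.55 (log2 fold changes -0.47 and -0.43, edgeR adjusted p = 0.0314 and 0.0398). Cct6a, a subunit of the chaperonin that folds tubulin and actin, fell from 116.0 and 115.7 CPM to 92.8 ± 6.21 (log2 fold changes -0.32 and -0.32, adjusted p = 0.0433 and 0.0418). These calls were weak. They held in 9 and 4 of 19 alternatives for Tbce and in 6 and 4 for Cct6a, and with library size alone 4 genes of the list were higher against MCS.

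Enzymes of the tubulin tail, 22 tested, showed 2 (9.09%) higher and 6 (27.3%) lower against WT Cre and 4 higher and 4 lower (18.2% each) against MCS. Agbl3, a carboxypeptidase that shortens glutamate chains, fell from 3.05 CPM ± 0.496 and 3.63 ± 0.249 to 0.676 ± 0.214 (log2 fold changes -2.21 and -2.46, edgeR adjusted p = 8.1e-05 and 3.2e-05). Tpgs2, a subunit of the polyglutamylase complex, fell from 7.82 and 8.08 CPM to 3.70 ± 0.636 (log2 fold changes -1.07 and -1.12, adjusted p = 0.000615 and 0.000386). Both held in all 19 alternatives. Ttll3, a glycylase, rose from 1.54 and 1.52 to 2.91 CPM ± 1.01 and Agbl5, a carboxypeptidase, from 6.17 and 5.59 to 10.6 ± 1.82 (adjusted p = 0.0440 and 0.0310 against WT Cre), but these held in 8 and 12 of 19 alternatives.

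Among 28 genes whose products bind or cut the microtubule lattice, 10 (35.7%) were higher and 4 (14.3%) lower against WT Cre. Against MCS, 10 (35.7%) were higher and 3 (10.7%) lower. Clip2, a plus-end binding protein, rose from 3.59 CPM ± 0.239 and 2.26 ± 0.0781 to 8.83 ± 3.34 (log2 fold changes 1.30 and 1.97, edgeR adjusted p = 0.00244 and 0.000201). Map1s rose from 5.74 and 5.37 CPM to 10.6 ± 4.73 (adjusted p = 0.0467 and 0.0293), a call that held in 5 and 12 of 19 alternatives. Both severing enzymes named by the rule fell. Fign, fidgetin, went from 6.08 and 4.98 CPM to 1.92 ± 0.725 (log2 fold changes -1.69 and -1.41, adjusted p = 0.00202 and 0.00498), and Spast, spastin, from 35.0 and 34.1 CPM to 23.6 ± 3.13 (log2 fold changes -0.57 and -0.53, adjusted p = 0.00382 and 0.00474). Both calls against WT Cre held in all 19 alternatives. Against MCS each held in 17, with that of Fign lost on log2(FPKM + 1) (-0.21, adjusted p = 0.116) and log2(FPKM + 0.1) (-0.70, adjusted p = 0.117), and that of Spast by library size alone (-0.29, adjusted p = 0.0782) and on log2(FPKM + 1) (-0.37, adjusted p = 0.0505). Without WT Cre 1, the number of genes in the list called higher against WT Cre was 5, while that over all genes went from 3444 to 2357.

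Of 23 genes of nucleation and anchoring, 2 (8.70%) were higher and 6 (26.1%) lower against WT Cre. Against MCS, 1 (4.35%) was higher and 7 (30.4%) lower. Haus4 fell from 12.6 and 11.99 CPM to 5.46 ± 0.935 and Haus7 from 10.9 and 11.8 CPM to 5.72 ± 1.73 (edgeR adjusted p = 0.000999 and 0.00605 against WT Cre). Haus8, a subunit of the same augmin complex, which branches microtubules, was at 2.92 to 4.29 CPM in WT Cre, 2.61 to 3.79 CPM in MCS and 6.19 to 86.5 CPM in KO (log2 fold changes 3.38 ± 0.80 and 3.60 ± 0.82, adjusted p = 0.0161 and 0.0119). Its KO livers differed widely, and the call against WT Cre was lost without WT Cre 1 (adjusted p = 0.0588) or WT Cre 3 (adjusted p = 0.0553).

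Of 34 transport motor genes, 6 (17.6%) were higher and 8 (23.5%) lower against each kind of control. Kif1c, a kinesin of vesicle transport, fell from 226 CPM ± 19.5 and 209 ± 25.1 to 121 ± 10.6 (log2 fold changes -0.90 and -0.79, edgeR adjusted p = 0.000269 and 0.000477). Kif5a, a kinesin heavy chain best known from neurons, fell from 2.79 and 3.38 CPM to 1.58 ± 0.276 (adjusted p = 0.0102 and 0.00156). Kif21b rose from 2.25 and 1.90 CPM to 6.61 ± 1.73 and Dynll1, a dynein light chain, from 16.1 and 12.5 CPM to 31.1 ± 3.11 (adjusted p = 0.000519 and 0.00113 against WT Cre). These 4 calls held in all 19 alternatives of both comparisons. With library size alone, 16 motor genes were higher and 2 lower against MCS. Between the controls, 1 of the 168 genes passed, Mapre3, an end-binding protein, at 59.3 CPM ± 4.37 in WT Cre and 39.6 ± 1.502 in MCS (log2 fold change 0.58 ± 0.12, adjusted p = 0.0485), while 21 had an unadjusted p under 0.05 and DESeq2 called 7. The call of Mapre3 was lost in 8 of the 10 fits that left out 1 liver, those without any one control, KO 2 or KO 3 (adjusted p up to 0.202), and it held in the other 9 alternatives.

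The genes whose profile over the 10 livers was closest to that of Tuba8 were sought among 13210 genes with a mean of at least 1 CPM, by the root mean square difference of log2 CPM after centring each gene on its 6 controls. They are a description, as all 10 livers, controls and KO alike, entered the search. Slc34a2, a sodium phosphate transporter, was closest at 0.72, with 1.89 CPM in WT Cre, 0.90 in MCS and 95.6 ± 46.8 in KO. Scd2, a stearoyl-CoA desaturase, followed at 0.76, with 15.8, 9.03 and 1183 ± 245 CPM. Cux2, a homeobox transcription factor, was at 0.80, with 0.708, 0.340 and 22.8 ± 5.31 CPM. Slc35f2, a solute carrier, was at 0.83, with 1.77, 0.414 and 36.2 ± 18.1 CPM, and the pseudogene Cyp2d41-ps at 0.88, with 1.45, 1.16 and 120.3 ± 24.8 CPM. All 5 had a higher mean in WT Cre than in MCS, as Tuba8 had, with an edgeR adjusted p for that difference between 0.0798 for Scd2 and 0.735 for Cyp2d41-ps. Because the controls entered the search, it favoured genes that share this difference.

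On the deposited FPKM values, Tuba8 again separated the groups of livers. Its share of alpha-tubulin RNA and its place among the tubulin genes differed from those by RPKM, as given above. Tuba1a and Tubb2b, among others, had a higher mean FPKM than mean RPKM in each group. Tuba8 was at 1.22, 1.26 and 0.981 FPKM in WT Cre, 0.252, 0.255 and 0.138 FPKM in MCS and 25.4, 40.6, 41.6 and 35.3 FPKM in KO, again without overlap. Tubb2b was listed at 14.5, 22.5 and 18.6 FPKM in WT Cre, 8.27, 8.60 and 8.57 FPKM in MCS and 12.2, 11.004, 14.2 and 27.5 FPKM in KO, although it had at most 38 counts in any liver. On log2(FPKM + 1) its difference between KO and WT Cre was -0.25, opposite in sign to that from counts. Tubb2b shares 31.3% of its 50-base stretches with Tubb2a, which was at 60.1 to 222 FPKM in the same livers.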

How the data were processed

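Reads had been trimmed and placed on the mouse build mm10 with STAR. Its methods name HOMER for counting and the submitters' processing notes name HTSeq and Cufflinks, and no source used here states the strand or multi-mapping setting. The deposited counts are whole reads per gene without normalization, and the deposited FPKM values were normalized by the authors for length and depth, with blank cells read as 0. The library kit was directional. All 10 columns of each table were matched to a liver.

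A total of 10 counts over all livers was required of each gene, as in the study. The main test was the two-sided quasi-likelihood test in edgeR 4.0.16 under R 4.3.3, fitted to all 10 livers, with TMM scaling, a shared dispersion, no covariates and Benjamini-Hochberg adjustment over all 22449 genes. It was tested on simulated data first. Levels per length used exon lengths from GENCODE M21. Coding ends were taken for Tuba1c, Tuba4a and Tuba8, and those of the other alpha-tubulin genes are not reported here. Sums and shares were compared by exact permutation between both kinds of control only, and those of KO were described without a test. The 19 alternatives for each fold change and count were DESeq2 1.42.0, scaling by library size alone or by RLE factors, other filters, fits of fewer groups, a replicate block, limma 3.58.1 on log2(FPKM + 1) and log2(FPKM + 0.1), and leaving out each liver.

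The tubulin genes, the lists and the markers were chosen with earlier results of these data known. From each list, the text names the genes with a mean of at least 1 CPM called the same way in both KO comparisons, up to 2 higher and 2 lower with the largest fold changes, besides the 10 tubulin genes, H3f3a, H3f3b and the 5 profiles closest to Tuba8. Marker genes, overlapping genes, Mapre3, Spc25, Tubb4a and Tubg2 were named after their values were seen. Nothing states whether livers were collected together, and p-values measure the spread between these livers. Replicate livers were not repeated libraries, since a chi-square test of their counts gave at least 10.3 for each degree of freedom.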

Additional observations from a re-analysis of the deposited data

Results flagged for a closer look

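In KO livers, 13 sets of 4 values were checked for a value far from the rest by Dixon's test at its 95% limit, and 3 were found, where chance gives about 1 in 20. Tubb2b was at 1.45 CPM in KO 4 and at 0.391 to 0.548 CPM in the other KO livers. Tubb6 was at 37.3 CPM in KO 4 and at 12.4 to 16.4 CPM in the others. The summed alpha-tubulin level was 129 RPKM in KO 1, the liver with the fewest counts, and 140.1 to 142 RPKM in the others.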

How the results depend on the processing

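Among the 30 log2 fold changes of the tubulin genes, 492 of 570 alternative values kept their direction and their side of the threshold, 51 newly passed it, 16 fell short of it and 11 changed sign. Where no other reason is given, the cause was not tested. The number of tubulin genes called against WT Cre (3) was 1 on log2(FPKM + 1) and on log2(FPKM + 0.1), and 1 to 7 when 1 liver was left out. Against MCS (4) it was 7 in DESeq2 and on both FPKM scales, 9 by library size alone, which shifts all genes, and 4 to 7 when 1 liver was left out. Between the controls (1) it was 3 in DESeq2, by library size alone, with only the groups compared and on log2(FPKM + 0.1), 2 on log2(FPKM + 1), and 1 to 3 when 1 liver was left out. Calls over all genes moved as well. Against WT Cre (6383) they were 5112 and 5144 on FPKM and 4266 to 8187 with 1 liver out. Against MCS (7192) they were 7273 in DESeq2, 6215 and 6462 on FPKM, 7291 by library size and 4979 to 8781 with 1 liver out. Between the controls (208) they were 643 in DESeq2, 279 by library size and 654 with only the groups compared. On FPKM they were 160 and 182, and with 1 liver out 70 to 517. Microtubule genes called against WT Cre (73) numbered 48 and 46 on the FPKM scales and 43 to 84 when 1 liver was left out. Between the controls (1) they numbered 7 in DESeq2, 2 by library size alone or without a filter, 3 with only the groups compared, and 0 to 2 when 1 liver was left out.

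Same-numbered livers did not deviate together in all pairs (correlations between -0.125 and 0.216). Between the controls, however, the same-numbered pairs had 0.121, 0.127 and 0.0971, and the other pairs ran from -0.138 to 0.0153. In the KO comparisons, differently numbered pairs ran from -0.283 to 0.334. What the number stands for is not stated. With a replicate block, which leaves KO 4 without a partner and out of the estimate, 5 tubulin genes were called against WT Cre, 2 between the controls, and 2 microtubule genes between the controls. With that block, calls over all genes were 5708 against WT Cre and 386 between the controls. Tubb2a was then lower in KO than in WT Cre (log2 fold change -0.58).

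The log2 ratio of summed alpha-tubulin between KO and WT Cre (0.27) was 0.38 by library size alone, 0.18 by coding length and 0.19 from FPKM, and between KO and MCS (0.54) it was 0.79 by library size alone. The Tuba8 share differed by 19.9 and 20.6 percentage points from WT Cre and MCS by coding length and by 11.7 and 12.1 from FPKM, and between the controls (0.846) by 0.660 and 0.343. Signs turned for Tuba4a in KO against WT Cre on FPKM (0.00047 and 0.00048) and for Tubb2b there (-0.25 and -0.27). With 1 liver left out, Tuba4a in KO against MCS ran from -0.11 to 0.12, Tuba1b between the controls from -0.0075 to 0.12, and Tubb6 from -0.12 to 0.25. Depth limits Tubb2b (3 to 38 counts) and Tuba8 in MCS livers (7 to 15 counts). With 1 liver left out of a group of 3, the rest still share the dispersion of all groups.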
